A study of Mus musculus with 8 samples.

Results

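The 45 genes described here encode proteins that copy DNA in S phase or separate the chromosomes in mitosis, and they were taken by symbol from a table of 23827 gene rows. All 45 had a row of their own and all 45 passed the filter on low counts, among 14592 genes tested. They comprise 17 S phase genes and 28 mitosis genes. The RNA came from superior cervical ganglia, the paired sympathetic ganglia at the top of the chain, of mice of strain C57Bl6/n on postnatal day 1. The conditional knockout group (cKO, 4 libraries) was KIF1Bb fl/fl and carried DBHcre +/-, so that Cre recombinase was driven by the promoter of Dbh, the dopamine beta-hydroxylase gene of noradrenergic cells. The control group (WT, 4 libraries) had the same floxed allele and was DBHcre -/-. Cre was present in the cKO group alone, so an effect of Cre and an effect of the deletion cannot be told apart. Each animal gave 1 library of polyadenylated RNA from its pair of ganglia, so neurons, glia, vessels and connective tissue were counted together.

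Before a cell copies its DNA, the loaders Cdc6 and Cdt1 place a ring of the proteins Mcm2 to Mcm7 on each origin, and the ring becomes the helicase that opens the helix. The E2F factors switch on many of these genes at the start of S phase, whereas genes of mitosis are switched on later through MuvB complexes that bind the CHR element, often beside CCAAT boxes bound by NF-Y. In the newborn sympathetic ganglion, neuroblasts are leaving the cell cycle while glia, endothelial cells and fibroblasts still divide. In bulk RNA, more dividing cells and more RNA per dividing cell cannot be told apart.

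Promoter windows, from 250 bases before to 50 bases after the start of the gene, were taken from the RefSeq table (GRCm38.p6). They were read for 38 of the 45 genes, and the other 7 were left out. The first 4 below are those of the genes whose cKO and WT values did not overlap, and Ccnb2 is shown as a mitotic gene with several CHR and CCAAT matches. Capitals mark matches on either strand to an E2F site (TTTCCCGC, TTTCGCGC, TTTGCCGC or TTTGGCGC), the CHR element (TTTGAA or TTCGAA) or CCAAT.
Mcm7 (chr5:138171834-138172133, minus strand): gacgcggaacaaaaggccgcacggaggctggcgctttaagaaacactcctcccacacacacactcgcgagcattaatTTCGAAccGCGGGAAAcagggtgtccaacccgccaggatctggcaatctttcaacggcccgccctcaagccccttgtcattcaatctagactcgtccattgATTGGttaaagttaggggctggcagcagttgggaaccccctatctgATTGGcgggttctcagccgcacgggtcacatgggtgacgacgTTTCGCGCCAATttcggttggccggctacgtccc
Cdt1 (chr8:122567765-122568064, plus strand): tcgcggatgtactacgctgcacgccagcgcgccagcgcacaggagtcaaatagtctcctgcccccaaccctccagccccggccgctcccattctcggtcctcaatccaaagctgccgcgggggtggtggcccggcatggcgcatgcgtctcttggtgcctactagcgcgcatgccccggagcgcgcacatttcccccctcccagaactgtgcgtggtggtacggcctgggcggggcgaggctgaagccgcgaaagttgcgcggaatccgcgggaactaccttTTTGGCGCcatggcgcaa
Mcm5 (chr8:75109259-75109558, plus strand): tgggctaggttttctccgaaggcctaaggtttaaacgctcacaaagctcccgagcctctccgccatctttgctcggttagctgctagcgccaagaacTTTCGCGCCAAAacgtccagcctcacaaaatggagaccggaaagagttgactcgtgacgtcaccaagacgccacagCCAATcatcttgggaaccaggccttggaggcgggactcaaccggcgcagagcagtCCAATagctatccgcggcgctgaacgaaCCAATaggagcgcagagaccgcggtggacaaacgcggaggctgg
Cenpa (chr5:30666636-30666935, plus strand): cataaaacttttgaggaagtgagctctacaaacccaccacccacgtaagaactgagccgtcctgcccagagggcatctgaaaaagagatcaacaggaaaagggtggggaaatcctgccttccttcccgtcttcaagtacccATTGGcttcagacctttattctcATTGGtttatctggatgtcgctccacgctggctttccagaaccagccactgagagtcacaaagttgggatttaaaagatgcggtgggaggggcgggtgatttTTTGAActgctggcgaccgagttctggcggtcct
Ccnb2 (chr9:70421505-70421804, minus strand): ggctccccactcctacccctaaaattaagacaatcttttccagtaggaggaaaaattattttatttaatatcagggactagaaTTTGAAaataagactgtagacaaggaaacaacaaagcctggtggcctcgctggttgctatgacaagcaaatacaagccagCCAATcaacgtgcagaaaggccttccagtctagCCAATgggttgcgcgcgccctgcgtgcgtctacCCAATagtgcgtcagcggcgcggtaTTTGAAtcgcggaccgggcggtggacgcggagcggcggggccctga
The Mcm7 window held 2 E2F matches, 1 CHR match and 3 CCAAT matches, of which the last CCAAT shares a base with the E2F match before it. Cdt1 had 1 E2F match and neither of the other motifs. Mcm5 had 2 overlapping E2F matches and 3 CCAAT matches. Cenpa had 1 CHR and 2 CCAAT matches, and Ccnb2 had 2 CHR and 3 CCAAT matches. A second window of Mcm7, which starts at another annotated start site, held 1 CCAAT match.

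An E2F match was present in 7 of 14 S phase genes (50%) and 2 of 24 mitosis genes (8.33%) whose windows were read. The share was 2.60% of the 27025 genes in the RefSeq table. The CHR letters were present in 2 of 14 S phase genes (14.3%) and 20 of 24 mitosis genes (83.3%), against 21.7% of all genes. CCAAT was present in 9 of 14 S phase genes (64.3%) and 20 of 24 mitosis genes (83.3%), against 41.1% of all genes. CHR and CCAAT stood together in 18 of 24 mitosis genes (75.0%) and 2 of 14 S phase genes (14.3%), against 9.65% of all genes. A match describes the letters of a window and is not evidence of binding.

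**Figure D1:**
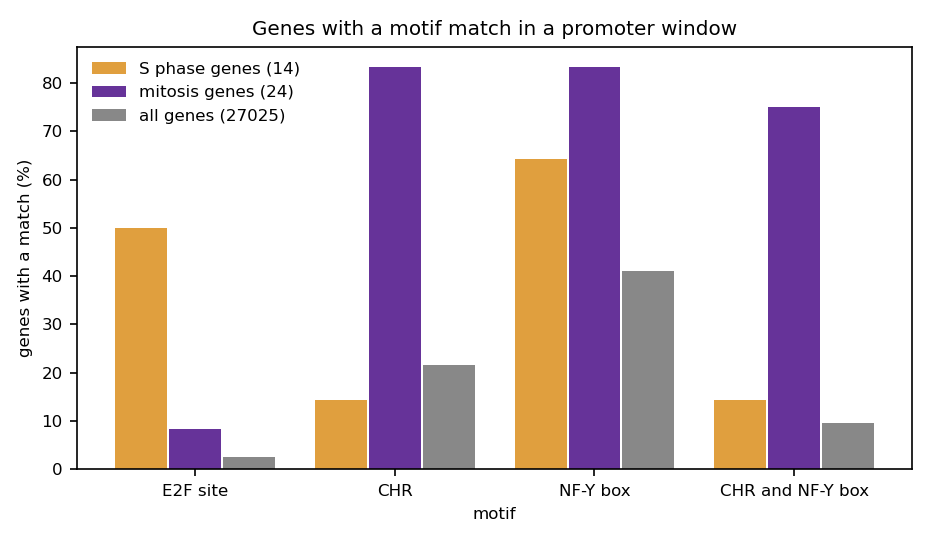
Share of genes (vertical axis, %) with at least 1 match to each motif in a promoter window, for S phase genes (n = 14), mitosis genes (n = 24) and all genes of the RefSeq table (n = 27025). The NF-Y box is CCAAT, and E2F matches were most frequent in S phase genes (50%) and CHR matches in mitosis genes (83.3%).

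Total counts were between 16214912 and 18114418 per library. Kif1b, the targeted gene, had 302, 191, 299.7 and 246 CPM (counts scaled to library size, TMM-adjusted) in cKO 1 to 4, against 1454, 1320, 933 and 1191 CPM in WT 1 to 4. Its log2 fold change was -2.24 (SE 0.18, edgeR adjusted p = 3.43e-04), and the count joined all isoforms. Libraries cKO 1 and WT 1 stood apart on the first principal component, which held 37.1% of the variance, and their muscle and cartilage markers summed to 169 and 65.5 CPM, against 15.7 to 22.9 CPM in the other 6 libraries. Over all tested genes, 234 were higher (1.60%) and 163 lower (1.12%) in cKO ganglia at an adjusted p below 0.05 in edgeR's quasi-likelihood test, together 2.72%. Scaling by library size alone gave 343 higher and 145 lower. The total of 397 became 147 without cKO 2, 137 without cKO 3, 79 without WT 2, 249 without WT 3 and 74 without WT 4.

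Of the 45 genes, 2 rose in cKO ganglia, Mcm7 and Cdt1, and none fell, so that 4.44% rose, against the 1.60% of all tested genes that were higher. All 45 had a log2 fold change above 0, as had 49.9% of all tested genes, and their median was 0.31, against -6.18e-04 over all genes. The 45 values ranged from 0.05 for Pola1 to 0.72 for Cdt1. An unadjusted p below 0.05 was found for 12 of the 45 (26.7%), all higher in cKO, against 9.42% of all tested genes. The groups did not overlap in 4 of the 45 (8.89%), Mcm5, Mcm7, Cdt1 and Cenpa, all higher in cKO. Over all tested genes they did not overlap in 11.0%, and in 875 of 14592 genes every cKO library lay above every WT library. These genes vary together over the libraries, so their counts do not add up as separate observations. The 45 genes were measured with between 37 counts (Cdc6 in WT 1) and 2339 counts (Rrm1 in cKO 2) per library.

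**Figure D2:**
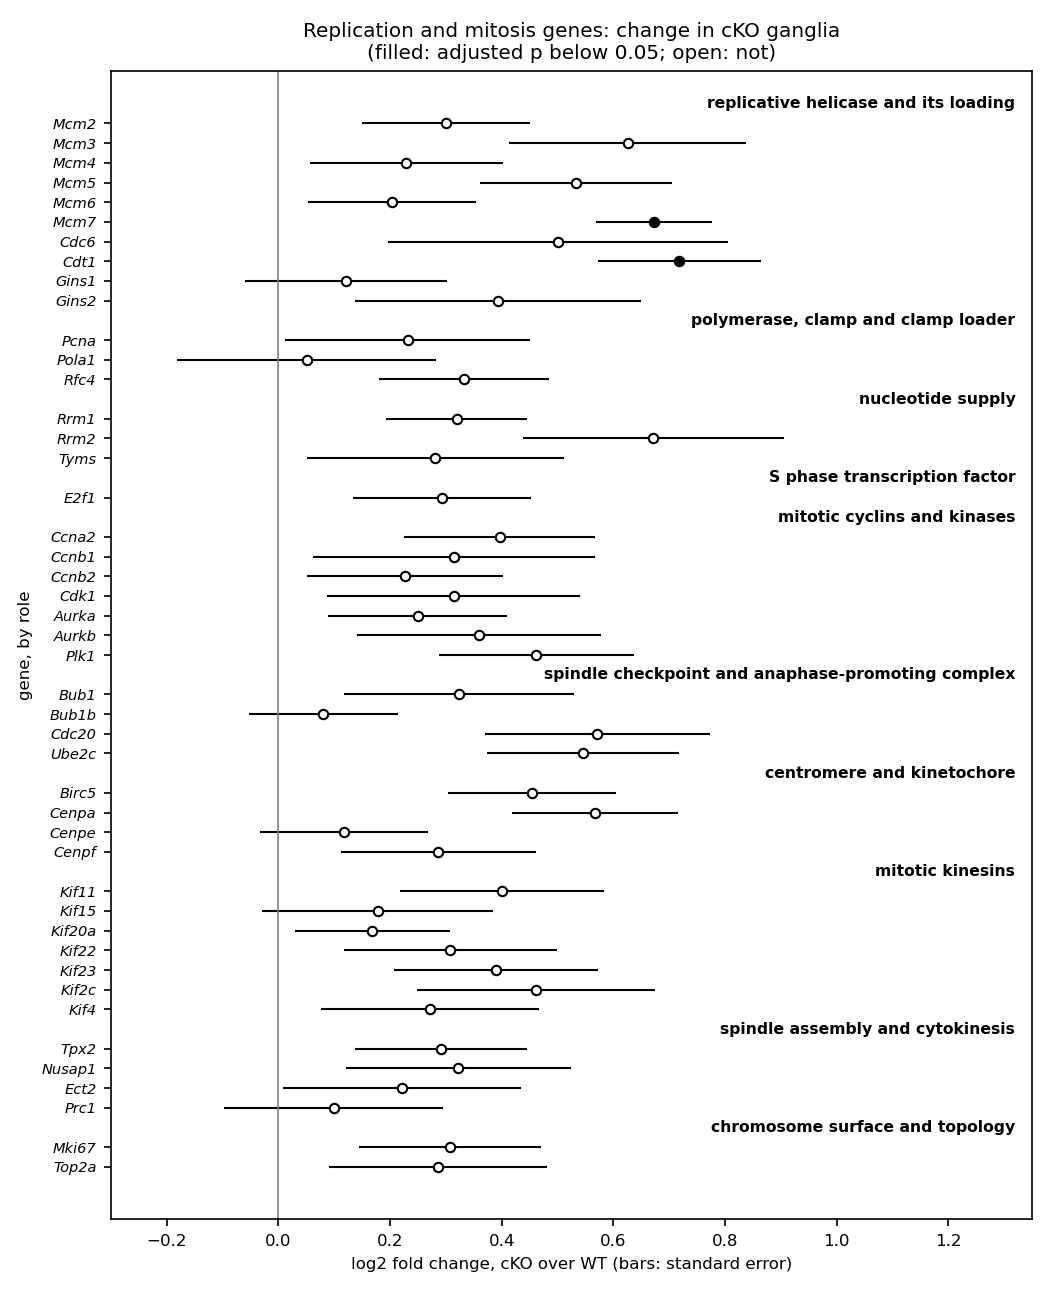
Log2 fold change of each gene, cKO over WT (horizontal axis), with its standard error from edgeR's quasi-likelihood fit, ordered by role. Points are filled for Mcm7 and Cdt1, the genes with an adjusted p below 0.05, and all 45 lie to the right of 0.

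Among 10 genes of the replicative helicase and its loading, Mcm7 and Cdt1 rose and the other 8 did not pass. Mcm7 (ENSMUSG00000029730.16, chromosome 5, 138164583 to 138172422, minus strand, GRCm38) encodes a subunit of the helicase ring. It had 36.7, 40.8, 36.8 and 36.4 CPM in cKO 1 to 4, against 25.7, 20.7, 24.3 and 23.8 CPM in WT 1 to 4. The groups were well apart and the cKO libraries lay close together. The means were 37.7 ± 2.07 CPM in cKO and 23.6 ± 2.12 CPM in WT (SD, n = 4 each), or 0.67 on the log2 scale (SE 0.10, edgeR's quasi-likelihood test, Benjamini-Hochberg adjusted p = 0.0110). Leaving out WT 4 gave 0.68 and an adjusted p of 0.0555. The gene overlaps Ap4m1 and Cops6 on the opposite strand, and the sources used here do not say whether reads were counted by strand. Their log2 fold changes were -0.03 (SE 0.12) for Ap4m1 and 0.03 (SE 0.16) for Cops6, and neither passed.

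Cdt1 (ENSMUSG00000006585.3, chromosome 8, 122568015 to 122573554, plus strand, GRCm38) encodes the factor that brings the ring to the origin. It had 16.3, 19.0, 15.2 and 18.1 CPM in cKO 1 to 4, against 12.4, 8.59, 9.45 and 11.3 CPM in WT 1 to 4, without overlap. The means were 17.2 ± 1.71 CPM in cKO and 10.4 ± 1.73 CPM in WT (SD, n = 4 each), or 0.72 on the log2 scale (SE 0.15, edgeR's quasi-likelihood test, adjusted p = 0.0310). That call held without WT 1 (adjusted p = 0.0203) and was lost without each of the other 7 libraries, with adjusted p between 0.0517 without cKO 1 and 0.110 without WT 2. In those 7 fits the log2 fold change lay between 0.64 and 0.77. A two-sided exact permutation test gave Mcm7 and Cdt1 each a p of 0.0286, which is the minimum over the 70 ways to divide the libraries. Any gene whose groups do not overlap gets this p, as Mcm5 and Cenpa did. It therefore adds nothing to the lack of overlap, which 11.0% of all tested genes showed.

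Mcm5, another subunit of the ring, had 26.6, 37.7, 27.2 and 34.7 CPM in cKO 1 to 4, against 15.9, 23.7, 25.8 and 21.8 CPM in WT 1 to 4. The gap was narrow, with WT 3 just below cKO 1. Its log2 fold change was 0.53 (SE 0.17) with an edgeR adjusted p of 0.139. Mcm3 had 0.63 (SE 0.21, edgeR adjusted p = 0.158), where cKO 3 at 17.1 CPM lay below WT 2 and WT 3 at 19.2 and 18.9 CPM. Mcm2, Mcm4 and Mcm6 had log2 fold changes of 0.30, 0.23 and 0.20, with standard errors of 0.15 to 0.17. Cdc6, the partner of Cdt1 in loading, had 4.75 ± 1.94 CPM in cKO and 3.36 ± 0.83 CPM in WT (SD, n = 4 each), with a log2 fold change of 0.50 (SE 0.30). The GINS subunits, which activate the loaded ring, had log2 fold changes of 0.12 (SE 0.18) for Gins1 and 0.39 (SE 0.26) for Gins2.

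Levels per length, in CPM per kilobase of annotated exons, set the ring subunits side by side within a group. Mcm6 was at 17.1 in cKO and 14.8 in WT, the highest level per length of the 45 genes, and Cdc6 at 0.908 in cKO and 0.642 in WT the lowest. Mcm4 stood at 10.7 in cKO and 9.16 in WT, and Mcm7 at 8.51 in cKO and 5.34 in WT. Mcm5 was at 7.90 and Mcm3 at 6.79 in cKO, against 5.46 and 4.40 in WT, and Mcm2 at 5.32 in cKO and 4.32 in WT. The exon lengths join all annotated transcripts, so they are approximate. In CPM not scaled by length, Mcm7 divided by the mean of Mcm2 to Mcm6 was 1.04, 0.75, 1.03 and 0.82 in cKO 1 to 4, against 0.93, 0.58, 0.63 and 0.70 in WT 1 to 4. On this ratio the groups overlapped, and WT 1 lay above cKO 2 and cKO 4.

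No gene passed among the 3 for polymerase, clamp and clamp loader or the 3 for nucleotide supply. Pcna, the sliding clamp, had 27.6, 48.7, 36.4 and 41.5 CPM in cKO 1 to 4, against 21.0, 36.6, 41.6 and 32.1 CPM in WT 1 to 4, and the groups overlapped widely. Pola1, the catalytic subunit of the priming polymerase, had the smallest log2 fold change of the 45 genes (0.05, SE 0.23). Rfc4, a clamp loader subunit gene, had 11.8, 15.5, 11.1 and 14.5 CPM in cKO 1 to 4, against 9.07, 11.9, 11.2 and 9.79 CPM in WT 1 to 4 (log2 fold change 0.33, SE 0.15, edgeR adjusted p = 0.306). The highest cKO libraries for Rfc4, as for Pcna, were cKO 2 and cKO 4. Rrm2, the small subunit of ribonucleotide reductase, had 21.8, 41.9, 23.6 and 34.8 CPM in cKO 1 to 4, against 12.9, 20.4, 21.5 and 21.9 CPM in WT 1 to 4. Its highest values were those of cKO 2 and cKO 4, while cKO 1 lay just below WT 4. The log2 fold change was 0.67 (SE 0.23) with an edgeR adjusted p of 0.169. Rrm1, the large subunit, had 0.32 (SE 0.13, edgeR adjusted p = 0.228), and Tyms, thymidylate synthase, 0.28 (SE 0.23). E2f1, the transcription factor of the list, had 9.37, 10.2, 7.95 and 11.2 CPM in cKO 1 to 4, against 7.36, 8.40, 9.22 and 6.57 CPM in WT 1 to 4. The groups overlapped through cKO 3, and the log2 fold change was 0.29 (SE 0.16, edgeR adjusted p = 0.410).

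None of the 28 mitosis genes passed. Among 7 cyclins and kinases, log2 fold changes ranged from 0.23 for Ccnb2 to 0.46 for Plk1, the polo-like kinase of mitotic entry. Plk1 had 11.3, 12.7, 8.06 and 11.0 CPM in cKO 1 to 4, against 6.50, 7.58, 7.56 and 9.54 CPM in WT 1 to 4 (SE 0.18, edgeR adjusted p = 0.210). Here WT 4 lay above cKO 3, and the other 3 cKO libraries above all WT libraries. Ccna2, the cyclin of S phase and mitotic entry, had 41.3, 50.1, 32.1 and 43.0 CPM in cKO 1 to 4, against 22.7, 34.7, 34.5 and 34.5 CPM in WT 1 to 4. Of its cKO libraries, cKO 3 lay below WT 2 to 4, and the log2 fold change was 0.40 (SE 0.17, edgeR adjusted p = 0.270). Cdk1, the kinase that drives mitosis, had 0.31 (SE 0.23), Ccnb1, its cyclin partner, 0.31 (SE 0.25), and the Aurora kinase genes Aurka and Aurkb 0.25 (SE 0.16) and 0.36 (SE 0.22).

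Of 4 genes of the spindle checkpoint and the anaphase-promoting complex, Ube2c, the complex's ubiquitin-conjugating enzyme, had the smallest p. It had 12.6, 15.5, 9.65 and 12.4 CPM in cKO 1 to 4, against 6.93, 8.59, 10.1 and 8.69 CPM in WT 1 to 4, with WT 3 above cKO 3. The log2 fold change was 0.55 (SE 0.17, edgeR adjusted p = 0.130). Ube2c overlaps Tnnc2, a skeletal muscle troponin gene on the opposite strand, which had 16.1 CPM in cKO 1 and 4.05 CPM in WT 1 and at most 0.802 CPM elsewhere. Cdc20, the activator of the complex, had 0.57 (SE 0.20, edgeR adjusted p = 0.175), and the checkpoint kinase gene Bub1 0.32 (SE 0.21). Bub1b, which encodes the checkpoint protein BubR1, had 18.4 ± 1.90 CPM in cKO and 17.4 ± 2.37 CPM in WT (SD, n = 4 each), with a log2 fold change of 0.08 (SE 0.13).

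Among 4 centromere and kinetochore genes, Cenpa (ENSMUSG00000029177.9, chromosome 5, 30666777 to 30674830, plus strand, GRCm38), the histone H3 variant that marks centromeres, had values without overlap. It had 16.5, 17.0, 11.8 and 17.6 CPM in cKO 1 to 4, against 9.75, 10.5, 10.4 and 11.7 CPM in WT 1 to 4. Library cKO 3 lay barely above WT 4 while the other cKO libraries were well above. Its log2 fold change was 0.57 (SE 0.15, edgeR adjusted p = 0.0714). It passed in DESeq2 (adjusted p = 0.0153) and in edgeR without cKO 3 (adjusted p = 0.0441), and over all alternatives the adjusted p ranged from 0.0153 to 0.267. Birc5, which encodes survivin of the chromosomal passenger complex, had 0.45 (SE 0.15, edgeR adjusted p = 0.148). The large kinetochore proteins' genes Cenpe and Cenpf had 0.12 (SE 0.15) and 0.29 (SE 0.17).

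The 7 mitotic kinesins are motors of the spindle and differ in function from the axonal motor encoded by Kif1b, the targeted gene. Their log2 fold changes ranged from 0.17 for Kif20a to 0.46 for Kif2c, and none passed. Kif11, which pushes the spindle poles apart, had the smallest p of the 7, at 31.7, 32.4, 19.7 and 27.7 CPM in cKO 1 to 4, against 17.5, 26.8, 19.0 and 21.2 CPM in WT 1 to 4 (log2 fold change 0.40, SE 0.18, edgeR adjusted p = 0.302). Library cKO 3 lay below WT 2 and WT 4. Kif2c, a microtubule depolymerase at centromeres, had 0.46 (SE 0.21), Kif23, a motor of cytokinesis, 0.39 (SE 0.18), and Kif22, which moves chromosome arms, 0.31 (SE 0.19). Kif4, a chromosome-bound motor, had 0.27 (SE 0.20), and Kif15, a spindle motor beside Kif11, 0.18 (SE 0.21). Of 4 spindle assembly and cytokinesis genes, Tpx2, an activator of Aurora A, had the smallest p, at 33.0, 34.8, 24.7 and 31.9 CPM in cKO 1 to 4, against 19.8, 30.9, 25.6 and 25.4 CPM in WT 1 to 4 (log2 fold change 0.29, SE 0.15, edgeR adjusted p = 0.392). For Tpx2, too, cKO 3 lay below WT 2 to 4. Nusap1, which bundles spindle microtubules, had 0.32 (SE 0.20), Ect2, the exchange factor for the cleavage furrow, 0.22 (SE 0.21), and Prc1, which crosslinks the central spindle, 0.10 (SE 0.20).

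Mki67, whose Ki-67 protein coats mitotic chromosomes and marks cycling cells, had 100.7, 92.1, 72.3 and 74.3 CPM in cKO 1 to 4, against 51.7, 83.8, 64.7 and 74.0 CPM in WT 1 to 4. The groups overlapped, with WT 2 above cKO 3 and cKO 4. Its log2 fold change was 0.31 (SE 0.16, edgeR adjusted p = 0.392). Top2a, the topoisomerase that untangles sister chromatids, had 88.7, 102, 64.9 and 83.0 CPM in cKO 1 to 4, against 47.2, 91.5, 67.0 and 72.0 CPM in WT 1 to 4. Here cKO 3 lay below 3 of the 4 WT libraries, and the log2 fold change was 0.29 (SE 0.20).

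**Figure D3:**
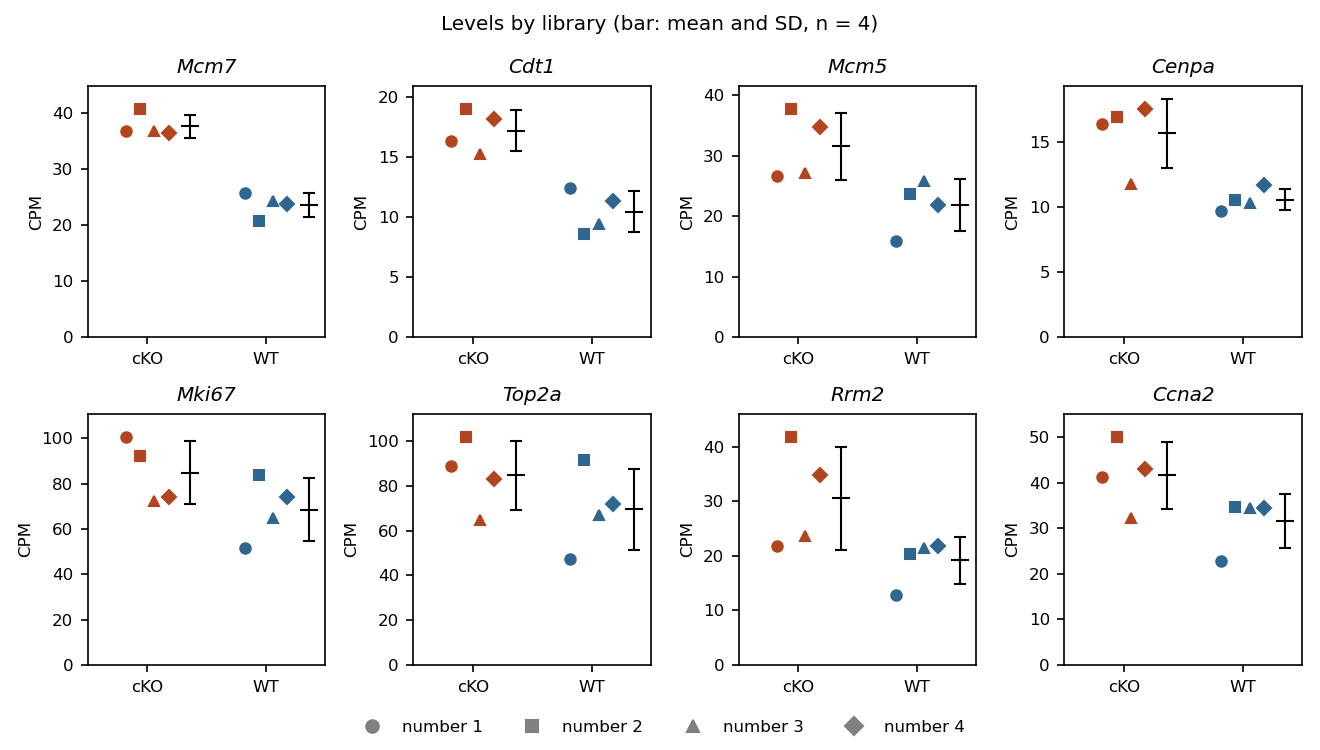
CPM of 8 genes in each library (vertical axes, starting at 0), with the mean and SD of each group (n = 4). Mcm7, Cdt1, Mcm5 and Cenpa show no overlap, whereas Mki67, Top2a, Rrm2 and Ccna2 overlap, with WT 1 (blue circle) lowest for these last 4.

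Most of the genes were high or low in the same libraries within each group. WT 1 was the lowest of the 8 libraries for 39 of 45 genes, and the exceptions were Mcm7, Cdt1, E2f1, Ccnb1, Cenpf and Kif2c. For Mcm7 and Cdt1 alone WT 1 lay above the WT mean. On the high side, cKO 2 was the highest of 8 for 34 genes, cKO 4 for 7, cKO 1 for 3 and WT 2 for 1, Bub1b. Within the cKO group, cKO 3 was the lowest for 34 of 45 genes. Compared library with library, cKO 3 exceeded WT 1 in 44 of 45 genes, but WT 2 in 10, WT 3 in 14 and WT 4 in 20. In contrast, cKO 2 exceeded WT 3 and WT 4 in all 45 genes and WT 2 in 42. Over the 8 libraries, the Pearson r of each gene with the mean of the other 44 had a median of 0.89 and ranged from 0.42 for Bub1b to 0.98 for Ccna2, with 0.48 for Cdt1 and 0.53 for Mcm7. These are descriptions, since all values come from the same libraries and include the difference between the groups. The median log2 fold change of the 45 genes was 0.20 without WT 1 and 0.40 without cKO 3, so WT 1 moved it by more than 1.5 times. With WT 1 and cKO 3 both left out, a choice made once the values were known, it was 0.29, and Mcm7 and Cdt1 still passed.

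**Figure D4:**
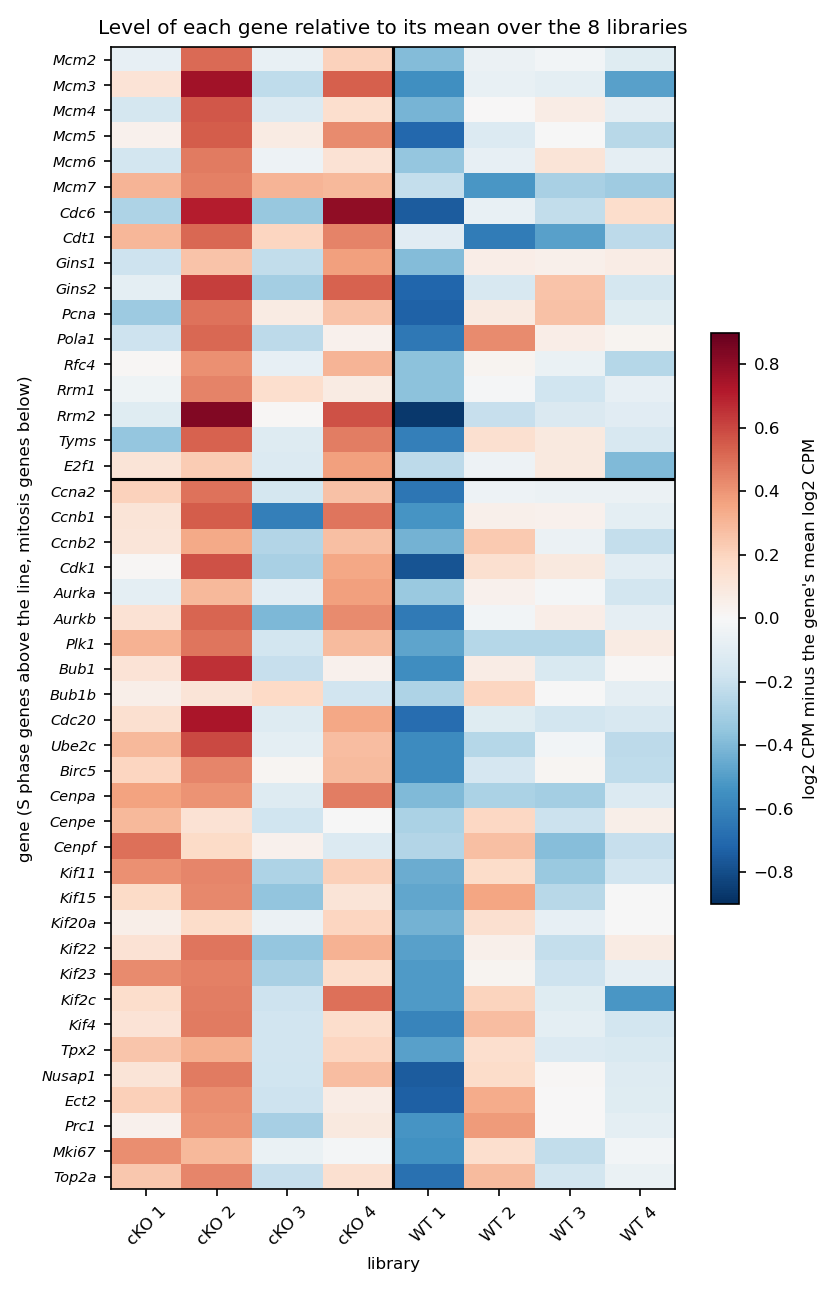
Log2 CPM of each gene minus its mean over the 8 libraries (colour scale), with cKO libraries left of the vertical line and WT libraries right of it, S phase genes above the horizontal line and mitosis genes below. The WT 1 column is lowest for 39 of 45 genes and the cKO 2 column highest for 34.

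The order of the libraries was also read for S phase and mitosis genes apart. The 17 S phase genes summed to 439, 651, 462 and 544 CPM in cKO 1 to 4, against 336, 439, 449 and 417 CPM in WT 1 to 4. The 28 mitosis genes summed to 681, 763, 516 and 649 CPM in cKO 1 to 4, against 399, 643, 530.3 and 544 CPM in WT 1 to 4. In both sums WT 1 was the lowest, and the groups overlapped. Within the cKO group, cKO 3 was the lowest library for 26 of 28 mitosis genes and 8 of 17 S phase genes, while cKO 1 was the lowest for 8 of 17 S phase genes and 0 of 28 mitosis genes. The S phase sum divided by the mitosis sum was 0.64, 0.85, 0.90 and 0.84 in cKO 1 to 4, against 0.84, 0.68, 0.85 and 0.77 in WT 1 to 4. The means were 0.81 ± 0.11 in cKO and 0.78 ± 0.08 in WT (SD, n = 4 each), a difference smaller than the spread in either group. The median log2 fold change was 0.32 over the S phase genes and 0.31 over the mitosis genes.

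Other genes of the same processes were read from lists chosen by role, beside the shares over all tested genes of 1.60% that passed as higher, 9.42% with an unadjusted p below 0.05 and higher, and 49.9% above 0. Of 43 other replication genes, 0 passed in edgeR, 7 (16.3%) had an unadjusted p below 0.05, all higher in cKO, and 34 (79.1%) had a log2 fold change above 0 (median 0.15). The smallest p was that of Chaf1b, a subunit of the factor that places histones on new DNA, at 14.2 ± 2.85 CPM in cKO and 9.04 ± 1.18 CPM in WT (SD, n = 4 each; log2 fold change 0.65, SE 0.17, edgeR adjusted p = 0.0728). Of 53 other mitosis genes, 0 passed in edgeR, 9 (17.0%) had an unadjusted p below 0.05, all higher in cKO, and 51 (96.2%) were above 0 (median 0.27). Dlgap5, a spindle microtubule protein gene, led them at 9.45 ± 1.60 CPM in cKO and 6.13 ± 0.84 CPM in WT (SD, n = 4 each; log2 fold change 0.62, SE 0.17, edgeR adjusted p = 0.0809). Of 18 E2F, pocket protein and MuvB regulator genes, 0 passed in edgeR, 3 (16.7%) had an unadjusted p below 0.05, all higher in cKO, and 12 (66.7%) were above 0 (median 0.08). Mybl2, which joins MuvB to switch on mitotic genes, had the smallest p there (log2 fold change 0.49, SE 0.17, edgeR adjusted p = 0.163). DESeq2 called 1 of the 43 (Chaf1b), 1 of the 53 (Dlgap5) and 0 of the 18, both as higher in cKO. Over all genes DESeq2 called 541 of 19635 as higher.

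Markers of other cell types in the ganglion differed between the groups in several lists. Over all tested genes, 1.60% passed as higher in cKO and 1.12% as lower. Fibroblast markers summed to between 7225 and 10611 CPM in cKO, against 5195 to 6703 CPM in WT, and 4 of 7 rose, the matrix genes Ogn, Col1a2 and Col3a1 and the growth factor receptor gene Pdgfra. Mural markers summed to between 263 and 352 CPM in cKO, against 172 to 182 CPM in WT (2 of 6 rose, Pdgfrb and Notch3), and endothelial markers to between 235 and 245 CPM in cKO, against 140 to 193 CPM in WT (2 of 8 rose, Pecam1 and Tek). Glial markers summed to between 1171 and 1332 CPM in cKO, against 873 to 1102 CPM in WT (1 of 9 rose, Mbp). Macrophage markers overlapped, at 162 to 265 CPM in cKO and 131 to 211 CPM in WT, and none of 8 passed. None of the markers in these 5 lists was at 0. The noradrenergic markers, which identify the labelled ganglion, summed to between 15251 and 16544 CPM in cKO, against 18514 to 19313 CPM in WT, although none of 11 passed. Sensory neuron markers summed to 193 CPM in cKO 4 and 82.1 CPM in WT 4, and to 32.0 to 50.3 CPM in the other 6 libraries. Red blood cell markers summed to 68.3 CPM in cKO 1 and 40.0 CPM in WT 1, and to at most 8.88 CPM elsewhere, with 4 of the 7 at 0 or without a row. The part of these cell types in the values of the 45 genes was not tested.

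**Figure D5:**
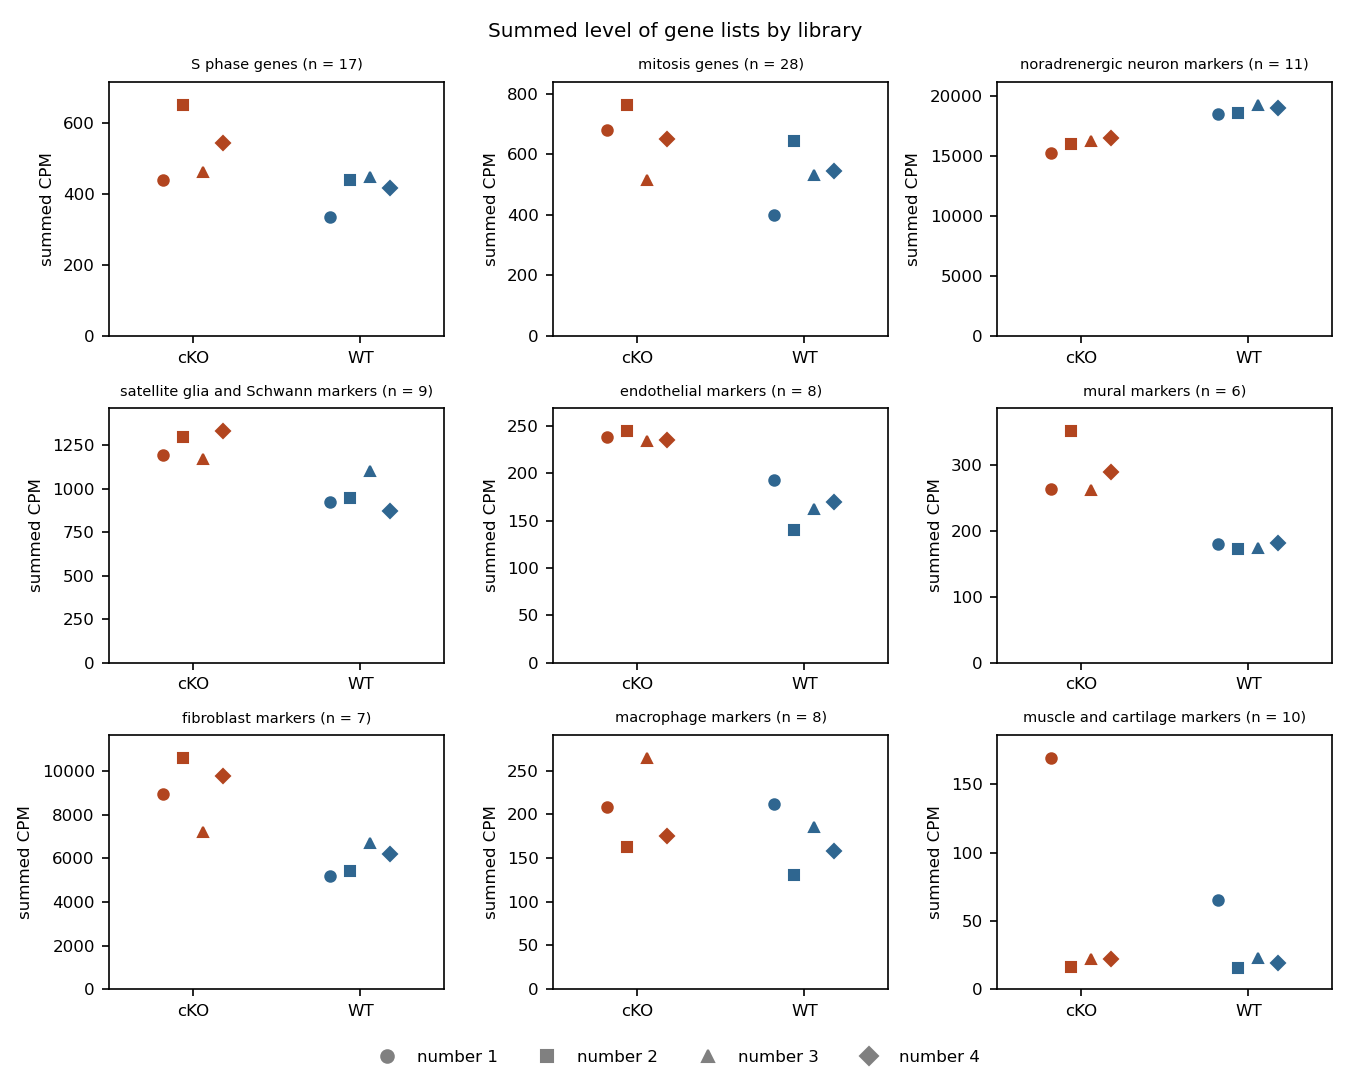
Summed CPM (vertical axes, starting at 0) of the S phase and mitosis genes and of 7 marker lists in each library, with library numbers shown by symbol. Mural, fibroblast, endothelial and glial sums are higher in every cKO library, the noradrenergic sum is lower, and the S phase and mitosis sums overlap.

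Outside the 45 genes, those whose log2 CPM followed the genes' mean pattern most closely over the 8 libraries were Mutyh, a DNA repair glycosylase gene, and Cdkn2c, a CDK inhibitor gene, each with a Pearson r of 0.99. Tuba1c, an alpha-tubulin gene, had 0.98, and Lum, the matrix proteoglycan lumican that is also on the fibroblast list, and 4930579G24Rik each had 0.97. Lum had 90.2, 150.4, 81.7 and 139 CPM in cKO 1 to 4, against 49.9, 94.8, 90.2 and 78.2 CPM in WT 1 to 4. WT 1 was lowest and cKO 2 highest, as in most of the 45 genes. The 5 genes were picked by this correlation, so a shared order of libraries follows from the choice. None of these 5 genes passed, and their log2 fold changes ranged from 0.23 for Mutyh to 0.56 for Lum. Of the other fibroblast markers, Col1a2, Col3a1 and Dcn also had WT 1 lowest and cKO 2 highest, whereas Col1a1, Ogn and Pdgfra did not.

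Among the 45 genes, 10 overlap another tested gene on the opposite strand, so their counts may share reads. Besides Mcm7 and Ube2c these are Gins2 (with Gse1), Rfc4 (Eif4a2), Ccna2 (Exosc9), Cdc20 (Elovl1), Kif20a (Cdc23), Kif4 (Pdzd11), Nusap1 (Oip5) and Prc1 (Rccd1). None of the overlapping genes passed.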

How the data were processed

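The authors deposited whole-number counts of reads per gene symbol, 1 column per library. Per the submitters' processing notes, STAR and the mm10 build were used. The STAR version, the counting program, the annotation and strandedness were not given in the sources used here. The library kit was Truseq v2, per the labels' protocols. Columns were matched to samples by title. The 14592 genes kept by filterByExpr were tested in edgeR 4.0.16 (R 4.3.3) by the robust quasi-likelihood F test on TMM-scaled counts, with group alone in the design. Genes passed at a Benjamini-Hochberg adjusted p below 0.05. The SE of a log2 fold change is its size divided by the square root of F. Log2 CPM used a prior count of 2. Chi-square values per gene between replicates of the same group (8.08 to 58.4) exceeded sampling noise, so no library was counted as a duplicate. P-values set the difference between the groups against the spread between libraries of different animals.

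Exon lengths and coordinates come from GENCODE vM21 on GRCm38 (mm10), and promoter sequences from RefSeq GRCm38.p6. The steps were tested on simulated counts, where 32.8% of genes changed 1.5-fold, 73.1% of those changed 2-fold and 100% of those changed 4-fold passed. A gene that did not pass is thus not shown to be unchanged. Alternatives were other scaling, other filters, DESeq2 1.42.0, limma 3.58.1 voom, a block for the library number, and libraries left out. The 45 genes, the lists and the motifs were chosen with earlier results of these data known. All 45 genes were to be described, with passing genes and the smallest p of each role in full. In the lists of other replication, other mitosis and regulator genes, the passing genes (at most 4) or the smallest p were to be named. The 5 genes outside the list were taken by the highest correlation with the mean pattern. The printed promoters, and Tnnc2 among the overlapping genes, were chosen after values were seen. Figures were drawn with matplotlib 3.10.9.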

Additional observations from a re-analysis of the deposited data

Results flagged for a closer look

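In 5 of 92 groups of 4 libraries, 1 library lay far from the other 3 relative to the whole range, where chance flags about 1 in 20 groups. In WT, library 1 was low for Gins1 (6.25 CPM), Rrm2 (12.9 CPM), Ccna2 (22.7 CPM) and Cdc20 (6.31 CPM). In cKO, library 2 was high for Mcm7 (40.8 CPM, with the other 3 between 36.4 and 36.8 CPM). The genes vary together, so the 4 values from WT 1 are not separate events.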

How the results depend on the processing

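The count of 397 genes was 977 with DESeq2, 687 with a replicate block, 65 without both libraries numbered 4, 206 without WT 1 and cKO 3, and between 74 and 514 with 1 library left out. The count of 2 among the 45 genes was 0 without both libraries numbered 4, and between 0 and 2 with 1 library left out (0 without WT 4). Leaving out libraries also lowers power. Without both libraries numbered 4, the adjusted p in edgeR was 0.0901 for Mcm7 and 0.163 for Cdt1. DESeq2 added Cenpa. The replicate block added Rrm2 (adjusted p = 0.0458). The labels do not say what a library number marks, and deviations of same-numbered libraries 1 to 4 correlated at 0.72, 0.35, -0.30 and 0.27, so 3 of 4 pairs were above 0.1, as were 4 of 12 pairs with different numbers. Of the 8 libraries, 4 correlated best with their own number. Over all alternatives Mcm7 lay between 0.61 and 0.73 and Cdt1 between 0.64 and 0.86 on the log2 scale. Genes near 0 turned negative in some settings: without both libraries numbered 1, Pola1 was at -0.0407, Cenpe at -0.0352 and Prc1 at -0.0247, and without WT 1 and cKO 3, Pola1 was at -0.0275 and Bub1b at -0.0393. With 1 library left out, Pola1 ranged from -0.139 to 0.217 and Prc1 from -0.0450 to 0.263. The cause of these shifts was not tested. Of 828 recomputed values for the 45 genes and Kif1b, 806 kept direction and side of the threshold. Most of these values belong to genes that did not pass in the main fit. Of the 18 alternatives, Mcm7 passed in 16 and Cdt1 in 10.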
